A study of Mus musculus with 8 samples.

Results

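Cytochrome P450 genes were followed in HCA-1 liver tumors of mice, taken 3 h after a single dose of imiquimod-loaded vesicles or saline. The members were all genes of the deposited normalized table whose symbol is Cyp followed by a family number, a subfamily letter and a member number, as in Cyp2e1. The rule found 91 genes among the 36670 of that table, and every one was joined to the count table by its Ensembl identifier. A further 18 P450 symbols of the table, among them pseudogenes and Cyp51, do not have this form and were not members. Of the 91 members, 55 had enough counts to be tested and 36 did not.

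Cytochrome P450 enzymes are heme proteins that insert oxygen into small molecules, with electrons passed on by the reductase Por in the endoplasmic reticulum or by the ferredoxin Fdx1 in mitochondria. Most of those of families 1 to 3 act on drugs and other foreign compounds and are made chiefly by hepatocytes, many of them around the central vein. Others make bile acids, hydroxylate fatty acids, or activate and break down vitamin D, retinoids and steroids. Inflammation of the liver is known to lower many hepatic P450 transcripts, and loss of P450 expression is a known feature of poorly differentiated hepatocellular carcinoma.

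RNA was sequenced from 8 tumors of C3H mice, all male and, by the labels, 6 to 8 weeks old. In both groups cells of HCA-1, a mouse hepatocellular carcinoma line, had been placed in the liver, and the injection into the vein followed on day 17. Mice of the 4 tumors named Control (1, 3, 4 and 5) received saline, and those of the 4 named IMQNP (1, 2, 3 and 4) received PFSUV-IMQ, phospholipid-free small unilamellar vesicles that carry the TLR7 agonist imiquimod, at 4 mg/kg. The model is a transplanted line in a syngeneic host, so each tumor also holds host cells, and hepatocytes of the surrounding liver may be among them. Libraries held 16883911 to 27687756 counts, at which 3 counts amount to 0.105 to 0.210 CPM, counting error only. CPM are counts relative to the library's total after TMM scaling.

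For each gene 2 quantities were computed. The slope on Alb gives the change in a gene's log2 level per unit of log2 level of Alb, the albumin gene and a hepatocyte marker, between tumors of the same group, so that a slope of 1 means that gene and Alb changed by the same factor. The log2 fold change compares the 4 IMQNP with the 4 Control tumors. Both came from edgeR's quasi-likelihood test across 15998 genes (15997 without Alb itself for the slope), with p adjusted by the Benjamini-Hochberg method over all of them.

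Alb differed widely between tumors of either group. Its level in the Control tumors was 7075 CPM in Control 1, 9027 in Control 3, 22446 in Control 4 and 2938 in Control 5. In the IMQNP tumors it was 4259 in IMQNP 1, 22736 in IMQNP 2, 5131 in IMQNP 3 and 5479 in IMQNP 4. Control 4 and IMQNP 2 thus stood apart from the other 6 tumors, with 1 such tumor in each group, and results that rest on them are also given without one or both. In bulk tumors, fewer hepatocytes and less RNA per hepatocyte cannot be told apart, nor can hepatocytes of adjoining liver and tumor cells that express hepatocyte genes.

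The P450 genes together moved with Alb. Their summed level was lowest in Control 5, at 764 CPM, and highest in IMQNP 2, at 8397 CPM, and they took 0.0833 to 0.845% of a tumor's counts. Relative to Alb the sum was much steadier, with 233 to 406 P450 counts per 1000 Alb counts over the 8 tumors. Cyp2e1 and Cyp3a11 alone gave 31.9 to 46.6% of the P450 counts.

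Per kilobase of exon, the 2 hepatocyte P450 markers were also the most abundant of the family. Cyp2e1, which oxidizes ethanol and acetaminophen, had a per-length level (CPM per kilobase) of 389 ± 412 in Control and 293 ± 284 in IMQNP tumors (SD, n = 4 each). Cyp3a11, the main drug-inducible CYP3A of mouse liver, had 141 ± 118 and 157 ± 166. Cyp3a25, Cyp2c29 and Cyp2d9 followed with means over the 8 tumors of 75.7, 68.6 and 59.0 CPM per kilobase. The SD within each group was about as large as the mean for Cyp2e1 and Cyp3a11. All genes were read in the same tumors, so this spread does not measure how firm their order is. Whether the order differed between tumors was not tested.

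**Figure D1:**
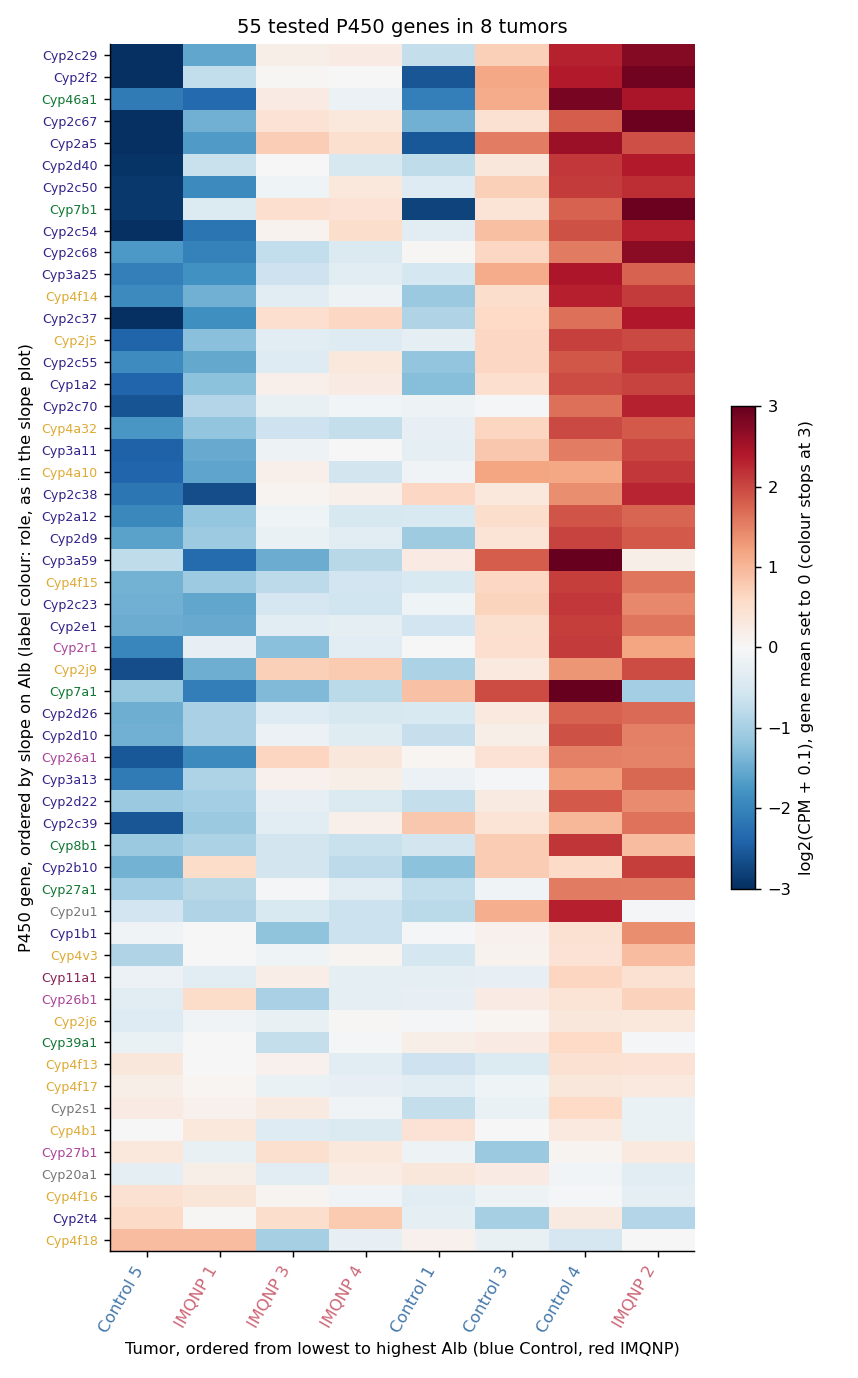
Heat map of the 55 tested P450 genes (rows, ordered by slope on Alb) in the 8 tumors (columns, ordered by Alb, Control 5 lowest and IMQNP 2 highest). Colour is log2(CPM + 0.1) with the mean of each gene set to 0 and stops at 3 in either direction. The upper genes turn from blue to red along the Alb order, and the genes at the bottom keep a pale colour in all tumors.

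Most tested P450 genes followed Alb. The slope was above 0 at an adjusted p under 0.05 in 43 of 55 members, or 78.2%, where 14.6% of all genes tested passed in that direction. In the other direction 0 members passed in edgeR and 0 in DESeq2, and 0 had an unadjusted p under 0.05, where 7.43% of all genes passed in edgeR. The median slope was 1.15 over the 55 members and 0.00 over all genes. Without the 2 tumors highest in Alb, an alternative chosen after seeing the data, 29 of 54 tested members still followed Alb, where 4.93% of all genes did, and 0 passed in the other direction, where 2.16% did.

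The extremes of the 43 followers fell on few tumors. Control 4 was the highest tumor for 22 of them and IMQNP 2 for 21. Control 5 was the lowest for 34 and IMQNP 1 for 8. From lowest to highest tumor the followers spanned a median of 4.23 on the log2 scale, which was wider than the 2.95 of Alb itself, whereas the 12 genes that did not follow spanned a median of 1.20. For 17 followers the slope lay more than 2 standard errors above 1, and for 3 (Cyp1b1, Cyp2j6 and Cyp4v3) it lay more than 2 below 1.

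**Figure D2:**
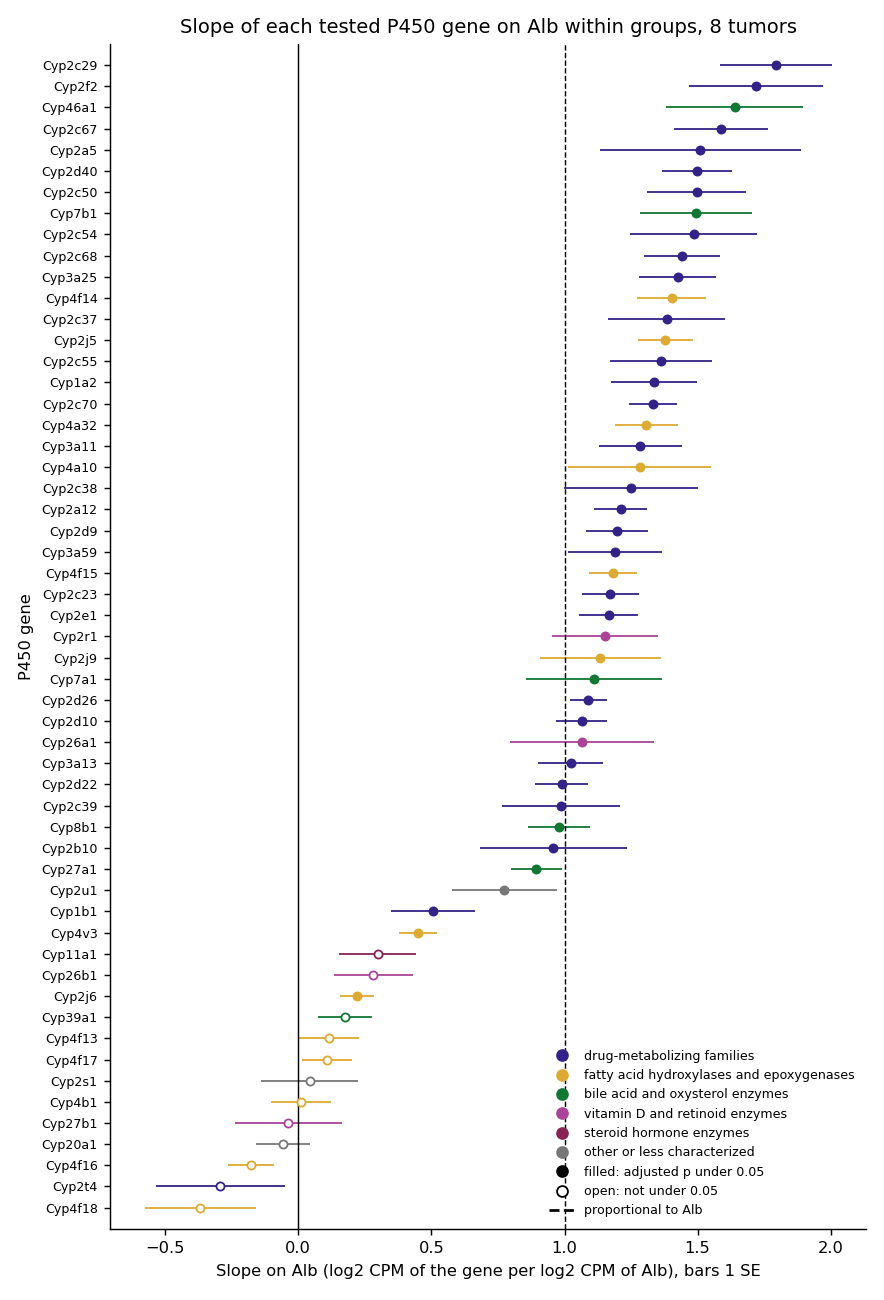
Slope on Alb of each tested P450 gene (log2 CPM of the gene per log2 CPM of Alb, bars 1 SE), coloured by role, filled where the adjusted p was under 0.05. Most drug-metabolizing genes lie at or to the right of the dashed line at 1, while Cyp20a1, Cyp4f16, Cyp4f18, Cyp2t4 and Cyp27b1 lie at or left of 0.

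Among the drug-metabolizing families, which hold 45 members, 27 of the 28 tested genes followed Alb. Cyp2e1 (ENSMUSG00000025479, chr7:140763739-140774987, plus strand, GRCm38) was at 338 CPM in Control 1, 710 in Control 3, 2130.5 in Control 4, 181 in Control 5, 178 in IMQNP 1, 1538 in IMQNP 2, 405 in IMQNP 3 and 412 in IMQNP 4. The low and the high tumors were those low and high in Alb, in both groups alike, and the groups overlapped. Its slope was 1.17 (SE 0.11, edgeR adjusted p = 4.25e-05).

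Cyp3a11 (ENSMUSG00000056035, chr5:145854426-145879964, minus strand) was at 416, 894, 1473 and 94.3 CPM in Control 1, 3, 4 and 5, and at 177, 2051, 456 and 514 CPM in IMQNP 1, 2, 3 and 4. The order of the tumors was again close to that of Alb, with Control 5 lowest and IMQNP 2 highest. Its slope was 1.28 (SE 0.16, edgeR adjusted p = 0.000191).

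The closest fit to Alb, by slope over standard error, was that of Cyp2d26, a liver member of the Cyp2d cluster on chromosome 15. It was at 38.3, 63.9, 178 and 18.8 CPM in Control 1, 3, 4 and 5, and at 26.7, 169, 40.1 and 37.7 CPM in IMQNP 1, 2, 3 and 4. Its level moved with Alb in either group at a slope of 1.09 (SE 0.07, edgeR adjusted p = 8.69e-06). Cyp2c70 (slope 1.33, SE 0.09), which hydroxylates bile acids in mice, Cyp2a12 (1.21, SE 0.10), Cyp2j5 (1.38, SE 0.10), an arachidonic acid epoxygenase, and Cyp4f15 (1.18, SE 0.09) complete the 5 with the largest ratio of slope to error.

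The steepest slopes belonged to Cyp2c29 and Cyp2f2. Cyp2c29, a phenobarbital-inducible enzyme, spanned 6.57 CPM in Control 5 to 681 CPM in IMQNP 2, with a slope of 1.80 (SE 0.21). Cyp2f2, which activates naphthalene, spanned 2.61 to 183 CPM in the same tumors, with a slope of 1.72 (SE 0.25). Of the exons of Cyp2f2, 13.5% are overlapped by the antisense gene Gm15883, and no source gives whether strand was used in counting.

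The drug-metabolizing gene that did not follow Alb was Cyp2t4, which had 0.246 to 1.10 CPM in the 8 tumors (slope -0.29, SE 0.24). Cyp1b1, which oxidizes estradiol and is made largely outside hepatocytes, passed with a slope of 0.51 (SE 0.16, edgeR adjusted p = 0.0407). It was highest in IMQNP 2, at 18.0 CPM against 2.84 to 9.36 CPM in the other tumors, and without IMQNP 2 the slope was 0.16 (edgeR adjusted p = 0.647). It did not pass without Control 3 (0.51), IMQNP 3 (0.43) or IMQNP 4 (0.47) either. Cyp1a2 (1.34, SE 0.16), which oxidizes caffeine and shares its regulator Ahr with Cyp1b1, was at 13.2 to 285 CPM.

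Of the bile acid and oxysterol enzymes, 5 of 6 followed Alb. Cyp27a1, the mitochondrial sterol 27-hydroxylase, was at 33.6, 52.5, 165 and 27.6 CPM in Control 1, 3, 4 and 5 and at 31.7, 163, 53.8 and 44.7 CPM in IMQNP 1, 2, 3 and 4. Cyp8b1, the sterol 12-hydroxylase that makes cholic acid, was at 18.2, 45.9, 119 and 12.4 CPM in Control 1, 3, 4 and 5 and at 13.9, 51.0, 18.5 and 16.8 CPM in IMQNP 1, 2, 3 and 4. Both were highest in the tumors highest in Alb, with slopes of 0.89 (SE 0.10) and 0.98 (SE 0.12). Cyp7b1, an oxysterol 7-hydroxylase, was at 4.52, 42.0, 108 and 4.18 CPM in Control 1, 3, 4 and 5 and at 23.6, 243, 44.8 and 42.8 CPM in IMQNP 1, 2, 3 and 4. Control 1 was about as low as Control 5 although richer in Alb. The slope was 1.49 (SE 0.21, edgeR adjusted p = 0.000524), and without both tumors highest in Alb it was 1.87 with an edgeR adjusted p of 0.0573. Cyp7a1, the first enzyme of the classic pathway, passed at 1.11 (SE 0.26, edgeR adjusted p = 0.011), but not without Control 4 (0.76) or Control 5 (0.75). In the IMQNP tumors Cyp7a1 stayed within 1.05 to 2.70 CPM. Cyp46a1, a cholesterol 24-hydroxylase best known from neurons, spanned 1.16 to 45.7 CPM and had a slope of 1.64 (SE 0.26). Cyp39a1, a further oxysterol 7-hydroxylase, stayed within 5.91 to 14.9 CPM and did not pass (slope 0.17, SE 0.10, edgeR adjusted p = 0.245).

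Of the fatty acid hydroxylases and epoxygenases, 8 of 13 tested genes followed Alb, and this group was split. Cyp2j5 (45.2, 83.9, 225 and 10.2 CPM in Control 1, 3, 4 and 5, and 22.7, 214, 43.0 and 41.4 CPM in IMQNP 1, 2, 3 and 4) was steep. Its neighbor Cyp2j6 on chromosome 4 stayed within 37.2 to 61.5 CPM, with a slope of 0.22 (SE 0.06, edgeR adjusted p = 0.0296), and the adjusted p did not stay under 0.05 without Control 3, 4 or 5 or without IMQNP 2 or 3. Cyp4v3, a hydroxylase known from lipid handling in the retina, followed at a slope of 0.45 (SE 0.07) within 70.6 to 250 CPM. Within the Cyp4f subfamily, Cyp4f14 and Cyp4f15 followed Alb (slopes 1.40 and 1.18), whereas Cyp4f13, Cyp4f16, Cyp4f17 and Cyp4f18 did not (0.11, -0.18, 0.11 and -0.37). Cyp4f18, known as a leukotriene hydroxylase of neutrophils and other leukocytes, was at 0.558 to 2.39 CPM, highest in Control 5 and IMQNP 1, the 2 tumors lowest in Alb.

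Of the vitamin D and retinoid enzymes, Cyp2r1, a vitamin D 25-hydroxylase, and Cyp26a1, the liver retinoic acid hydroxylase, followed Alb at slopes of 1.15 (SE 0.20) and 1.06 (SE 0.27). Cyp27b1, the vitamin D 1-hydroxylase of kidney and macrophages, was at 0.281 to 1.06 CPM with a slope of -0.04 (SE 0.20), and Cyp26b1, the retinoic acid hydroxylase of stellate and other cells, was at 2.79 to 9.08 CPM with a slope of 0.28 (SE 0.15). Neither slope passed. The call for Cyp26a1 was lost without Control 4 (slope 1.06) or Control 5 (slope 0.82), and at 0.109 CPM Control 5 was below its level of 3 counts (0.163 CPM).

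Cyp11a1, the side-chain cleavage enzyme that starts steroid synthesis, was the only tested steroid hormone enzyme, at 1.05 to 2.19 CPM (slope 0.30, SE 0.14, edgeR adjusted p = 0.164). Of the other genes, Cyp20a1, whose substrate is not known, was at 61.2, 56.7, 45.0 and 39.7 CPM in Control 1, 3, 4 and 5 and at 54.5, 38.4, 38.5 and 55.7 CPM in IMQNP 1, 2, 3 and 4. It was low both in Control 5, poorest in Alb, and in IMQNP 2, richest in it, with a slope of -0.06 (SE 0.10). Cyp2s1, known from epithelia, did not follow either (slope 0.04, SE 0.18), and Cyp2u1, a fatty acid hydroxylase, did (0.77, SE 0.20), but not without Control 4 (0.47) or Control 5 (0.71).

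**Figure D3:**
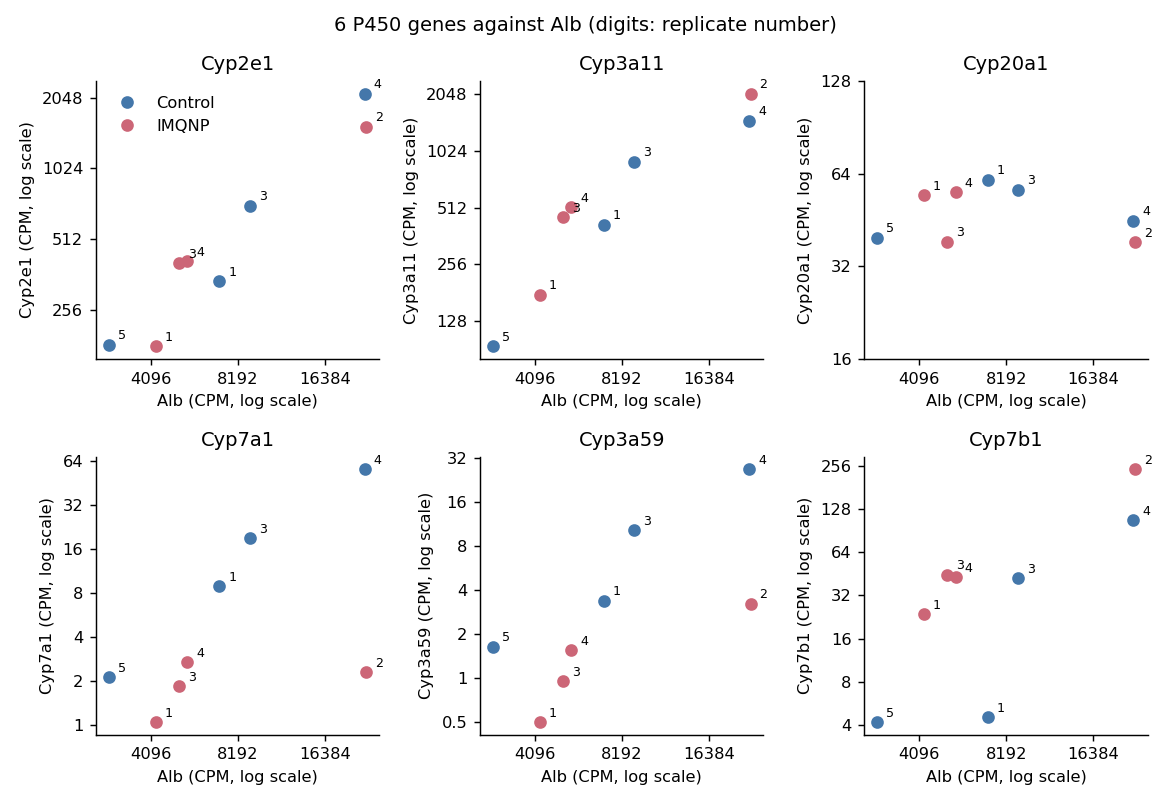
CPM of 6 P450 genes against CPM of Alb in the 8 tumors (log scales, digits are replicate numbers, blue Control and red IMQNP). Cyp2e1 and Cyp3a11 rise with Alb in both groups and Cyp20a1 does not, while for Cyp7a1 and Cyp3a59 IMQNP 2, the tumor highest in Alb, lies at 2.31 and 3.21 CPM, far below Control 4 at 55.7 and 26.6 CPM.

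Correlations across the 8 tumors gave a like picture. Pearson's r with log2 CPM of Alb passed at an adjusted p under 0.05 (exact permutation over all pairings of the tumors, two-sided) in 28 of 55 members, where 6.6% of all genes passed with a positive r. For Cyp2e1, r was 0.96 (exact permutation p = 0.00057, adjusted over all genes 0.0175) and Spearman's rho 0.88 (exact p = 0.00724, adjusted 0.0706). For Cyp20a1, r was -0.16 (exact p = 0.676, adjusted 0.814) and rho -0.02 (exact p = 0.977, adjusted 0.985). Without Control 4 and IMQNP 2, the 2 tumors farthest from the median of Alb, r was 0.87 for Cyp2e1 and 0.66 for Cyp20a1. No gene of the table passed after adjustment in those 6 tumors. With 720 pairings the exact p cannot fall below 0.00139, so adjustment over 15997 genes left little room to pass. Over 8 tumors r was at least 0.8 in 36 of 55 members, where it was in 10.3% of all genes. All 36 were among the 43 followers, of which 26 reached 0.8 in the 6 tumors.

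The other genes of the drug-metabolizing pathway moved with Alb to unequal degrees. Of 18 other drug-metabolizing enzymes on the list, 17 followed Alb, with Ephx1 the exception (slope 0.12, SE 0.08). Of 10 nuclear receptors and partners, 8 followed, among them Hnf4a (1.08, SE 0.07), a main activator of hepatocyte genes, and Nr1i3 (1.11, SE 0.19), the receptor CAR that induces Cyp2b and Cyp2c genes. Ahr (0.14, SE 0.12) and its partner Arnt (-0.04, SE 0.07) did not pass. Of 6 electron donors only Cyb5a (0.74, SE 0.08), Cyb5b (0.32, SE 0.07) and Fdx1 (0.58, SE 0.08) followed. The reductase Por, which serves all microsomal P450 enzymes, had a slope of -0.01 (SE 0.09) and was at 55.9 to 114 CPM, lowest in Control 3 and highest in IMQNP 1.

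Markers of other cells were read beside these slopes. All 10 tested hepatocyte genes other than Alb followed it, as did 5 of 5 pericentral and 6 of 6 periportal hepatocyte genes. The hepatocyte list summed to 5965 to 43444 CPM in the Control and 9761 to 50812 CPM in the IMQNP tumors. Of the other cell types, 3 of 5 endothelial, 2 of 6 macrophage, 1 of 6 stellate, 1 of 4 T cell, 0 of 4 cholangiocyte, 1 of 3 red cell, 0 of 3 proliferation and 0 of 4 oncofetal genes followed Alb, with the cholangiocyte gene Sox9 passing in the opposite direction (-0.38, SE 0.08). Of 4 adrenal cortex genes 1 was tested and did not follow, and Hsd3b6 and Mc2r were under 3 counts in every tumor. The part of hepatocyte number in the P450 slopes was not tested.

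Members that follow Alb were also compared by the sequence before their starts. The set of RefSeq promoter windows used here holds 71 of the 91 members, 36 of them followers and 10 tested genes that did not follow. It holds none for Cyp7a1, Cyp7b1 and Cyp2u1. The motif CAAAGNNCA, a form bound by HNF4A, was searched on both strands of the 250 bases before each start. This motif was found in 15 of the 36 followers (41.7%), in 1 of the 10 others (Cyp4b1) and in 6.29% of 27025 genes with a window. The stricter CAAAGTCCA, a special case of it, was found in 5 followers (13.9%), Cyp2c67, Cyp2c68, Cyp2c70, Cyp3a11 and Cyp8b1, in 0 of the 10 others and in 0.451% of all genes. The Cyp2c and Cyp2d members are close copies of each other, so these windows are not independent.

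Other motifs of liver factors differed less from the rest of the genome. GTTAAT of the HNF1 site was found in 13.9% of followers against 7.49% of all genes, and TGTTTAC of FOXA in 11.1% against 3.54%. AGGTCA, shared by many nuclear receptors and part of CAAAGGTCA, a further case of CAAAGNNCA, was found in 22.2% against 15.8%. CAAGGTCA, the NR5A2 motif, which holds AGGTCA, was in 0 of the 36 windows against 1.51%. Of the 10 tested genes that did not follow, 2 held AGGTCA and 0 the other 3 motifs.

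The windows of 3 followers with the strict motif and of Cyp20a1, which did not follow Alb and has no match, are shown to place the motif. They are read 5′ to 3′ on the strand of the gene in GRCm38.p6, Cyp3a11 at chr5:145879855-145880104, minus strand, Cyp2c70 at chr19:40187287-40187536, minus strand, Cyp8b1 at chr9:121916306-121916555, minus strand, and Cyp20a1 at chr1:60343050-60343299, plus strand. Capitals mark matches to CAAAGNNCA, which begin 109 bases before the RefSeq start in Cyp3a11, 64 in Cyp2c70, and 242 and 67 in Cyp8b1. By the GENCODE gene coordinates used elsewhere, Cyp3a11 starts at 145879964 and Cyp2c70 at 40187333. Both lie inside these windows, so the distances hold for the RefSeq starts only.
Cyp3a11: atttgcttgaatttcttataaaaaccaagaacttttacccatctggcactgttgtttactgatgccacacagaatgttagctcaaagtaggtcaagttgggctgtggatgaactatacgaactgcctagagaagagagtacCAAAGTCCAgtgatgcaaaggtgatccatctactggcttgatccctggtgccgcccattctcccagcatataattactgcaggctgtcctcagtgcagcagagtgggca
Cyp2c70: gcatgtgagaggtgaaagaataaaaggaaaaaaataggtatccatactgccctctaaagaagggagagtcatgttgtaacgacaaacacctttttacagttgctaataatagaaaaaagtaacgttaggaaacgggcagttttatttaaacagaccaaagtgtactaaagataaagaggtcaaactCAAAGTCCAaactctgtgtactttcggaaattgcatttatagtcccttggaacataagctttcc
Cyp8b1: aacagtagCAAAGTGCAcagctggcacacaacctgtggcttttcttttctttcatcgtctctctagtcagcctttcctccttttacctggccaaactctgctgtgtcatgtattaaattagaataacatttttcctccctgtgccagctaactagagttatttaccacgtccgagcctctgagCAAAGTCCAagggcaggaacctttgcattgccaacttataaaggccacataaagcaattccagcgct
Cyp20a1: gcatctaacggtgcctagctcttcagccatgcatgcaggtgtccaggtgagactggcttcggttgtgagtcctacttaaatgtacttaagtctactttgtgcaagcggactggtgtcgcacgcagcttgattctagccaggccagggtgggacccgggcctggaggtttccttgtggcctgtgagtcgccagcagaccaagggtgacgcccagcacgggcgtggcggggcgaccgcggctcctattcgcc

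The second question was which P450 genes differ between the IMQNP and the Control tumors. A call needed an edgeR adjusted p under 0.05 and a change of more than 1 on the log2 scale. Taken as they are, 0 of 55 tested members were called in either direction, where 2.26% of all genes were called higher and 0.2% lower. Without the limit on size the count was also 0, where 2.46% and 0.219% passed. At an unadjusted p under 0.05, 3 members were lower and 0 higher, where 4.65% of all genes were lower and 8.34% higher. DESeq2's Wald test called 2 members lower, Cyp7a1 and Cyp3a59, and 0 higher, where it called 0.714% of all genes lower and 3.58% higher. With no filter on low counts, edgeR called the same 2 of 88 members lower and 0 higher, where 0.182% and 1.41% of all genes were called. Values lay above 0 in 28 tested members and below 0 in 27, with a median of 0.02 against -0.03 for all genes. For no tested member did the CPM of the 2 groups fail to overlap, where 6.0% of all genes tested lay wholly higher and 3.28% wholly lower in IMQNP.

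Cyp7a1 (ENSMUSG00000028240, chr4:6265612-6275633, minus strand, GRCm38), the rate-limiting enzyme of bile acid synthesis, had the lowest fold change of the family. It was at 8.89, 18.9, 55.7 and 2.12 CPM in Control 1, 3, 4 and 5 and at 1.05, 2.31, 1.84 and 2.70 CPM in IMQNP 1, 2, 3 and 4. Control 1, 3 and 4 were above all IMQNP tumors, and Control 5, the tumor poorest in Alb, was among them. Its log2 fold change was -3.44 (SE 0.85, edgeR adjusted p = 0.0759), without Control 4 it was -2.34 (edgeR adjusted p = 0.144) and without both tumors highest in Alb -2.45 (edgeR adjusted p = 0.174). Without Control 5 it was -3.82, with an edgeR adjusted p of 0.0193. With DESeq2 the adjusted p was 8.34e-05 and with no filter on low counts 0.00483 (edgeR), and over all alternatives it spanned 8.34e-05 to 0.189.

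Cyp3a59 (ENSMUSG00000061292, chr5:146079257-146113287, plus strand), a close copy of Cyp3a25 (ENSMUSG00000029630, chr5:145977194-146009618, minus strand), was next in size. It was at 3.36, 10.2, 26.6 and 1.63 CPM in Control 1, 3, 4 and 5 and at 0.497, 3.21, 0.948 and 1.54 CPM in IMQNP 1, 2, 3 and 4. The groups overlapped in 1 tumor of each, since IMQNP 2, rich in Alb, was above Control 5. Its log2 fold change was -2.77 (SE 0.88, edgeR adjusted p = 0.175), and the adjusted p was 0.00875 with DESeq2 and 0.0392 with no filter on low counts (edgeR), within 0.00498 to 0.440 over all alternatives. Without Control 4 the fold change was -1.73 (edgeR adjusted p = 0.440), and without both tumors highest in Alb it was -2.37.

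Cyp2u1 was the third with an unadjusted p under 0.05. Its level was 3.13, 11.9, 28.4 and 3.69 CPM in Control 1, 3, 4 and 5 and 2.92, 5.31, 4.01 and 3.53 CPM in IMQNP 1, 2, 3 and 4, so that Control 3 and 4 were high and all other tumors alike. Its log2 fold change was -1.58 (SE 0.65, edgeR adjusted p = 0.330), against -0.68 without Control 4 (edgeR adjusted p = 0.715) and -0.87 without both tumors highest in Alb. Of its exons, 10.5% are overlapped by an antisense gene.

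Taken as they are, the 2 hepatocyte P450 markers did not pass, and their errors were wide. Between the groups the log2 fold change was -0.41 (SE 0.82, edgeR adjusted p = 0.907) for Cyp2e1 and 0.15 (SE 0.85, edgeR adjusted p = 0.968) for Cyp3a11. Leaving out Control 4 turned that of Cyp2e1 to 0.62, and leaving out Control 1, Control 5 or IMQNP 2 turned that of Cyp3a11 to -0.04, -0.22 or -0.93. At these standard errors a change of 1 on the log2 scale in either gene was not detectable. Of the 36 genes on the lists of electron donors, heme supply, nuclear receptors and other drug-metabolizing enzymes, edgeR called 0, with 2 higher and 1 lower at an unadjusted p under 0.05, and DESeq2 called 1 higher and 1 lower. Por had a log2 fold change of 0.30 (SE 0.21).

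Since most members moved with Alb within each group, the groups were also compared with Alb as a covariate in the fit. At a given Alb level, 2 members were called lower and 2 higher beyond a log2 fold change of 1, where 0.869% of all genes were called lower and 3.99% higher, so that the count of higher members is near the background. Cyp7a1 fell by 2.49 on the log2 scale (SE 0.52, edgeR adjusted p = 0.0143) and Cyp3a59 fell by 2.18 (SE 0.38, edgeR adjusted p = 0.0051). This fit takes a single slope on Alb for both groups. For Cyp7a1 the slope in IMQNP minus that in Control was -1.41 (edgeR unadjusted p = 0.00095, adjusted p = 0.445). The size of its fall may therefore depend on the Alb level. Cyp7b1 (ENSMUSG00000039519, chr3:18071950-18243338, minus strand), the oxysterol 7-hydroxylase of the alternative bile acid pathway, rose by 1.71 (SE 0.44, edgeR adjusted p = 0.0395), and Cyp2c67 rose by 1.38 (SE 0.35, edgeR adjusted p = 0.0407). Cyp2c70 passed below the limit on size, at 0.77 (SE 0.18, edgeR adjusted p = 0.0275), so that without the limit 3 members were higher and 2 lower, where 5.71% and 1.46% of all genes were. Over the 55 members the median was 0.17 and over all genes -0.03.

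**Figure D4:**
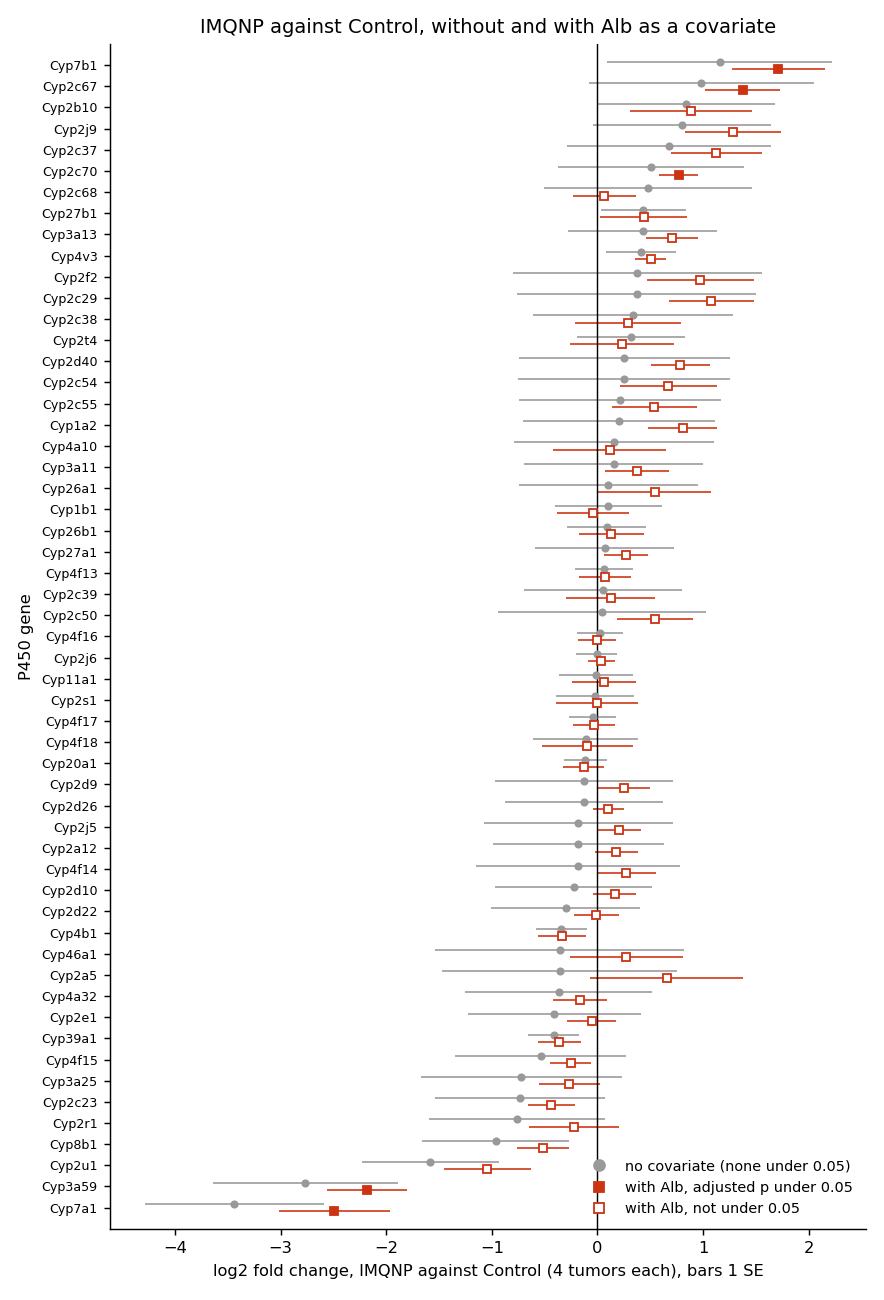
log2 fold change of the 55 tested P450 genes, IMQNP against Control (4 tumors each, bars 1 SE), without a covariate in grey and with Alb as a covariate in red, filled where the adjusted p was under 0.05. With Alb the errors are shorter for 53 of the 55 genes, Cyp7a1 and Cyp3a59 stay lowest at -2.49 and -2.18, and Cyp7b1 is highest at 1.71.

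With a tumor left out, or the hepatocyte list in place of Alb, the lower calls held better than the higher ones. Without both tumors highest in Alb, edgeR called 2 members higher and 1 lower, and the share of all genes was not computed. Cyp7a1 kept its call with each tumor left out in turn, at -3.05 to -1.57, the last without IMQNP 2, and without both tumors highest in Alb (-1.54, edgeR adjusted p = 0.0118). Cyp3a59 lost it without IMQNP 2 (-1.69, with an edgeR adjusted p just over 0.05) and without both tumors highest in Alb (-1.69, edgeR adjusted p = 0.0548). Cyp7b1, Cyp2c67 and Cyp2c70 each lost the call in 6 of the 8 fits with a tumor left out, among them those without Control 4, Control 5, IMQNP 2, IMQNP 3 and IMQNP 4. Over these 8 fits the value of Cyp7b1 was 1.36 to 2.13, and without both tumors highest in Alb it was 2.04 (edgeR adjusted p = 0.0689). The value of Cyp2c67 was 1.14 to 1.71 and that of Cyp2c70 0.59 to 0.92 over the 8 fits. When the mean of the hepatocyte list took the place of Alb, edgeR called 0 members higher and 6 lower, where 3.34% and 1.69% of all genes were. At an unadjusted p under 0.05, 1 was higher and 15 lower, and the share of all genes at that limit was not computed. In that fit Cyp7b1 had 0.92 (SE 0.38, edgeR adjusted p = 0.187), Cyp2c67 had 0.45 (SE 0.23, edgeR adjusted p = 0.295) and Cyp2c70 had 0.05 (SE 0.18, edgeR adjusted p = 0.902). The 6 called lower with that list were Cyp7a1 (-3.11), Cyp3a59 (-2.84), Cyp2u1 (-1.47), Cyp2c23 (-1.09), Cyp3a25 (-1.07) and Cyp8b1 (-1.04). Without the limit on size 9 members passed as lower. The further ones were Cyp4f15 (-0.87, edgeR adjusted p = 0.0276), Cyp2e1 (-0.73, edgeR adjusted p = 0.0331) and Cyp2j5 (-0.55, edgeR adjusted p = 0.0483). The share of all genes that passed without the limit in that fit was not computed. At a given Alb level, 9 of the 10 other tested genes of that list had a log2 fold change above 0, and Serpina3k, a protease inhibitor, passed the test (0.87, SE 0.18, edgeR adjusted p = 0.015).

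Ratios of counts within a tumor show the same genes without a fit. These ratios were chosen after their values were seen and are given as a description. Cyp7a1 had 1.26, 2.09, 2.48 and 0.721 counts per 1000 Alb counts in Control 1, 3, 4 and 5, and 0.246, 0.101, 0.359 and 0.493 in IMQNP 1, 2, 3 and 4. Cyp7b1 had 0.638, 4.66, 4.79 and 1.42 per 1000 Alb counts in Control 1, 3, 4 and 5, and 5.54, 10.7, 8.73 and 7.81 in IMQNP 1, 2, 3 and 4. In neither case did the groups overlap. Of the 55 members, 1 (Cyp7b1) was wholly higher in its ratio to Alb, where 2.04% of all genes were, so that this count is near the background. Cyp7a1 and Cyp3a59 were wholly lower, where 0.606% of all genes were. Cyp8b1, which acts after Cyp7a1, had 2.58, 5.08, 5.28 and 4.23 per 1000 Alb counts in Control 1, 3, 4 and 5 and 3.26, 2.24, 3.60 and 3.07 in IMQNP 1, 2, 3 and 4, so its groups overlapped.

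The neighbors Cyp3a25 and Cyp3a59 on chromosome 5 differed in how they stood in the 2 groups. For every 100 counts of Cyp3a25 there were 5.29, 5.12, 5.32 and 7.28 counts of Cyp3a59 in Control 1, 3, 4 and 5, and 1.89, 1.02, 1.58 and 2.07 in IMQNP 1, 2, 3 and 4. The groups did not overlap, and among the Control tumors the ratio stayed within 5.12 to 7.28 although Cyp3a25 itself spanned 22.4 to 500 CPM. This ratio, too, was chosen after its values were seen, and the share of other gene pairs that separate likewise was not computed. Of the 50-base words in the exons of these genes, 26.8% of Cyp3a25 and 28.0% of Cyp3a59 occur in another gene as well, so that their counts depend on how shared reads were treated, and 1112 counts in all were given to Cyp3a59. The log2 fold change of Cyp3a25 was -0.72 (SE 0.95, edgeR adjusted p = 0.838) without and -0.27 (SE 0.29, edgeR adjusted p = 0.659) with Alb as a covariate.

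**Figure D5:**
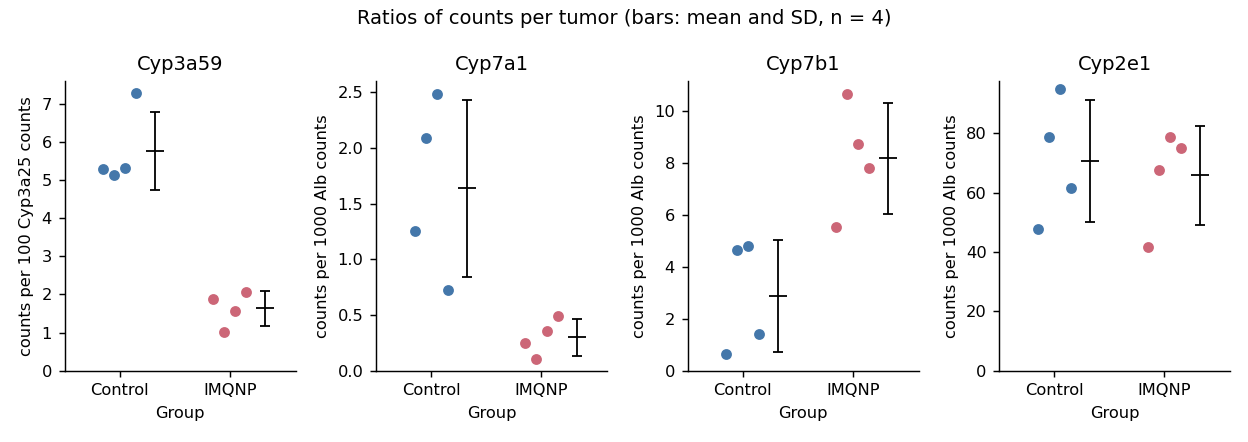
Ratios of counts in each tumor (points, with mean and SD beside them, n = 4), Cyp3a59 per 100 Cyp3a25 counts and Cyp7a1, Cyp7b1 and Cyp2e1 per 1000 Alb counts. Control and IMQNP points are apart in the first 3 panels and mixed for Cyp2e1, which spans 47.7 to 94.9 in Control and 41.8 to 78.8 in IMQNP.

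The sequences before the starts of these neighbors are shown because they are nearly the same while the levels differed. In GRCm38.p6, that of Cyp3a25 lies at chr5:146009618-146009867, minus strand, and that of Cyp3a59 at chr5:146079008-146079257, plus strand. They are identical at 239 of 250 bases (95.6%), and capitals mark the 11 that differ. Counted from 1 at the 5′ end of the window, and with the base of Cyp3a25 given before that of Cyp3a59, the change nearest the start is T247G and 5 of the 11 lie close together, C146A, G153A, C156T, A158G and T162G. The CAAAGNNCA match of both begins 180 bases before the start, and none of the 11 falls in it or in the other motif matches of these windows.
Cyp3a25: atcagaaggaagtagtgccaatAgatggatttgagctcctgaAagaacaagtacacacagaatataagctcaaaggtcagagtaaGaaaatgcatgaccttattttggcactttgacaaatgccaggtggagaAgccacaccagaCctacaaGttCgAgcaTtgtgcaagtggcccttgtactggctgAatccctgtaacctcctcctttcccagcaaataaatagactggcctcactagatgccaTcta
Cyp3a59: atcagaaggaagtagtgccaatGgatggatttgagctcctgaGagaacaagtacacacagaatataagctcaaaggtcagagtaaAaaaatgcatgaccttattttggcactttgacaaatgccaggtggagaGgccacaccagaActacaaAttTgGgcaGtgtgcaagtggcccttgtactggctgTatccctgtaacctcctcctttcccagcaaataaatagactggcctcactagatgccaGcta

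Cyp2c67, a member of the Cyp2c cluster on chromosome 19, was named after its value in this fit was seen. It was at 13.3, 49.9, 127 and 4.24 CPM in Control 1, 3, 4 and 5 and at 13.2, 279, 49.0 and 45.2 CPM in IMQNP 1, 2, 3 and 4. The groups overlapped in these levels and in the ratio to Alb, and IMQNP 2 was highest. Of its 50-base words, 52.8% occur in other genes, Cyp2c40 and Cyp2c69 among them, so its counts depend on how shared reads were treated. In all, 13 of the 55 tested members share over 20% of their words with other genes, all but Cyp4f16 of the Cyp2a, Cyp2c, Cyp2d, Cyp3a and Cyp4a subfamilies.

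Among regulators, Nr1i3 lay with the genes that were lower at a given Alb level. It was at 1.24, 2.28, 10.1 and 0.869 CPM in Control 1, 3, 4 and 5 and at 0.221, 1.19, 0.613 and 0.221 CPM in IMQNP 1, 2, 3 and 4, with a log2 fold change of -2.17 (SE 0.44, edgeR adjusted p = 0.0119) with Alb and -2.72 (SE 0.88, edgeR adjusted p = 0.191) without. The levels of IMQNP 1 and IMQNP 4 are near that of 3 counts. Nr1i3 was the only nuclear receptor of the list of 10 called at a given Alb level. Hnf4a (0.49, SE 0.15) and Nr0b2 (-0.11, SE 0.41), the repressor known to act on Cyp7a1, were not called. Alas1, the first enzyme of heme synthesis, rose by 1.12 (SE 0.23, edgeR adjusted p = 0.0117) at a given Alb level, with 21.9 to 34.0 CPM in the Control and 33.7 to 124 CPM in the IMQNP tumors. Of the 6 electron donors and of the 18 other drug-metabolizing enzymes edgeR called 0 at a given Alb level, with 1 and 0 past an unadjusted p of 0.05. With the hepatocyte list in place of Alb, 0 of the 18 enzymes were called by edgeR and 2 passed as lower without the limit on size. In that fit 10 of the 18 were lower at an unadjusted p under 0.05. Of the 6 electron donors 2 were lower at that unadjusted p and 0 were called. Of the 10 nuclear receptors 2 were called lower. The share of all genes at the unadjusted limit was not computed.

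Some markers of other cells and of liver zones also moved with the groups, and some of the lists were divided. At a given Alb level, 2 of 6 periportal genes were called higher by edgeR, Pck1 (2.54, SE 0.31) and Sds (2.01, SE 0.27), and the other 4 had -0.28 (Hal), -0.05 (Hsd17b13), 0.26 (Ass1) and 0.29 (Aldh1b1). Of 5 pericentral genes, 1 was called higher, Slc1a2 (1.61, SE 0.40), and 2 more passed below the limit on size, Glul (0.67) and Oat (0.86). Of 6 macrophage and Kupffer genes, 1 was called lower, Vsig4 (-1.58, SE 0.25), Clec4f passed below the limit on size (-0.93), and Timd4 alone was above 0 (0.14). Of 6 stellate and fibroblast genes, 1 was called lower, Lrat (-1.70, SE 0.36), while 3 were above 0, Col1a1 (0.82), Col1a2 (0.66) and Dcn (0.18). All 5 endothelial genes were below 0, and Stab2 passed below the limit on size (-0.74, edgeR adjusted p = 0.0489). The 3 red cell genes were below 0 as well, with 2 at an edgeR unadjusted p under 0.05 and 0 after adjustment. Without a covariate, edgeR called 1 gene of all the lists, Vsig4 (-1.62, SE 0.35, edgeR adjusted p = 0.0453), and DESeq2 called 5, Alas1 higher and Vsig4, Lrat, Nr1i3 and Hbb-bs lower. The macrophage list summed to 269 to 435 CPM in Control and 143 to 308 CPM in IMQNP tumors, with no marker at 0. The part of these cells in the P450 values was not tested.

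Whether the slope on Alb differed between the groups was tested by an interaction term, and 0 members and 0 genes in all passed after adjustment in edgeR. At an unadjusted p under 0.05 there were 3 of 55 members, where 4.15% of all genes passed. The difference in slope, IMQNP minus Control, was -1.41 for Cyp7a1 (edgeR unadjusted p = 0.00095, adjusted p = 0.445), -0.78 for Cyp2u1 and 0.62 for Cyp2c68, the last 2 at an edgeR adjusted p of 0.999. Each group has 4 tumors, of which 1 sets the upper end of Alb.

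The 36 members that were not tested were low in all tumors and together gave 25 to 188 counts per tumor, fewest in Control 5 and most in Control 4. Cyp2j7, Cyp11b1 and Cyp2b13 had no count, which allows up to 3 counts in a library. A further 17 had 1 to 9 counts over the 8 tumors, among them Cyp24a1, which breaks down active vitamin D, with 8, and the aromatase Cyp19a1 with 1. The remaining 16 had 13 to 85, among them the steroid enzymes Cyp21a1 (49) and Cyp17a1 (30), Cyp4a14 (53), known to be induced through PPARA, and Cyp1a1 (18), known to be induced through the aryl hydrocarbon receptor. Cyp21a1 was at 0.046 to 0.258 CPM in Control and 0.279 to 0.908 CPM in IMQNP tumors. Cyp26c1 was at 0.046 to 0.141 and 0.276 to 0.559 CPM. The groups thus did not overlap in these genes, at levels near that of 3 counts. The share of all untested genes that did so was not computed. At least 3 counts were present for 56 members in Control 5 and for 71 in Control 4 and IMQNP 2.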

How the data were processed

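Bulk RNA of 8 tumors (4 Control, 4 IMQNP) was sequenced from KAPA mRNA HyperPrep libraries. The authors deposited a table of read counts per gene, with no normalization, and a table of DESeq2-normalized signal values, which are these counts divided by a size factor per tumor. The submitters' processing notes name Trimmomatic 0.38, HISAT2 2.1.0 and featureCounts 2.0.0, whereas the methods of the study name TopHat and HTSeq. The genome build and the strand setting of the counting are not given in the sources used here, and the identifiers are all in GENCODE M21 (GRCm38), which gave exon lengths, overlaps and coordinates. The normalized table fixed the members and was not tested.

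The members and gene lists were chosen with earlier results of these data known. Counts were tested with edgeR 4.0.16 (TMM, filterByExpr, quasi-likelihood, R 4.3.3) for IMQNP against Control and for the slope on the centred log2 CPM of Alb (prior count 2) beside a group term. A call needed an adjusted p under 0.05 and, for the groups, a log2 fold change beyond 1. DESeq2 1.42.0, other filters, size factors, covariates and left-out tumors were alternatives. Leaving out the 2 tumors highest in Alb, and the alternatives to the fit with Alb as a covariate, were chosen after seeing the data. Exact permutation tests were computed with numpy 2.4.6, with ranks for Spearman's rho from scipy 1.17.1. The scripts were tested on simulated data. Same-group libraries differed beyond counting noise (chi-square per degree of freedom 26.0 to 258). The labels do not say that each tumor came from a mouse of its own, so p-values measure the spread between these tumors.

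Genes described were Cyp2e1 and Cyp3a11, every member with an unadjusted p under 0.05 between the groups, the 3 most abundant per length in each role, and the 5 with the largest and the 5 with the smallest slope over its error. Any other member named was chosen after its values were seen. Intervals of 3 counts cover counting error only. Promoter windows (250 bases) are RefSeq's, build GRCm38.p6.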

Additional observations from a re-analysis of the deposited data

Results flagged for a closer look

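For 27 named genes in each group, 54 groups of 4 tumors were tested. In 12 of them the highest or lowest tumor lay apart from the other 3 beyond Dixon's 95% limit. For a single gene and group, chance gives about 1 in 20. All genes were read in the same tumors, and some were named for how closely they followed Alb. The tests are thus not independent, and their count cannot be held against that rate. In 11 of the 12 the tumor that lay apart was IMQNP 2, the IMQNP tumor highest in Alb. Its level was 351 CPM for Cyp2c70, 315 for Cyp3a25, 279 for Cyp2c67, 249.8 for Cyp4v3, 243 for Cyp7b1 and 214 for Cyp2j5. It was 169 CPM for Cyp2d26, 163 for Cyp27a1, 146 for Cyp2a12, 51.0 for Cyp8b1 and 25.4 for Cyp4f15. In the remaining group Control 4, the Control tumor highest in Alb, was at 2.19 CPM for Cyp11a1.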

How the results depend on the processing

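Without a covariate, the count of P450 genes called lower in IMQNP went from 0 to 2 with no filter on low counts, to 2 with DESeq2, to 2 with Alb as a covariate and to 0 to 1 with a tumor left out, and the count called higher went to 2 with Alb as a covariate and stayed at 0 with any tumor left out. With the replicate number as a block (replicate block), 8 were called lower (1.67% of all genes) and 19 of 55 followed Alb (3.66% of all genes). The numbers were not taken to pair the tumors, since same-numbered tumors deviated from their group means with correlations of 0.29, -0.27 and -0.32. The followers of Alb numbered 37 to 45 with a tumor left out. At a given Alb level, 0 to 3 genes were called higher and 1 to 3 lower with a tumor left out. With the hepatocyte list in place of Alb 0 were called higher and 6 lower. Without the 2 tumors highest in Alb 2 were called higher and 1 lower. With DESeq2 size factors or the block 2 were called higher and 2 lower. The cause of these shifts was not tested.

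Some signs turned. The log2 fold change of Cyp2c67 was -0.51 under the block and -0.46 to 2.09 with a tumor left out. That of Cyp2e1 was -1.35 to 0.62 with a tumor left out and -1.36 under the block (edgeR adjusted p = 0.0767). That of Cyp3a11 was -0.93 to 0.77 with a tumor left out, -1.24 under the block and -0.32 without the 2 tumors highest in Alb. Over all alternatives in edgeR and DESeq2, the adjusted p for Cyp3a11 spanned 0.0252 to 0.997. Slopes turned for Cyp20a1 (-0.20 to 0.044), Cyp27b1 (-0.18 to 0.16) and Cyp2s1 (-0.24 to 0.17) with a tumor left out. Without the 2 tumors highest in Alb the slope was -0.019 for Cyp11a1, 0.34 for Cyp20a1 and -0.41 for Cyp2s1, and r with Alb was -0.13, 0.66 and -0.68. Under the block the slope was 0.42 for Cyp27b1, 0.37 for Cyp2t4 and 0.43 for Cyp4f16. Of all slopes of named genes under an alternative, 367 kept direction and call, 28 lost the call, 1 gained it and 9 turned.

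Without a covariate the standard error of the log2 fold change was 0.82 for Cyp2e1 and 0.85 for Cyp3a11, so that with 4 tumors a group a change of 1 in them was not detectable. Genes that share over 20% of their 50-base words with others depend on how shared reads were counted, which was not tested.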
